A study of Mus musculus with 14 samples.

Results

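The 49 genes described here are interferon response genes, a list of transcripts that cells raise on exposure to interferon, and their levels were measured in the ascending aorta of C57BL/6 mice. Members were found by gene name in the deposited table of 32289 genes and kept where the level was at least 1 FPKM (fragments counted per kilobase of a transcript and scaled by library size) in at least 3 of 14 libraries. Of the 49 genes, 44 were kept, among 13294 genes that passed the same filter. All samples were taken at 6 weeks and fall into 4 groups. There were 3 libraries of mice given PBS and 4 of mice fed β-aminopropionitrile (BAPN), which blocks the cross-linking of collagen and elastin by lysyl oxidases and is used to produce aortic aneurysm and dissection. A further 3 libraries came from mice given BAPN with Cilengitide, a cyclic RGD peptide, and 4 from mice given BAPN with SB273005, a non-peptide compound. Both compounds are named by the labels as inhibitors of integrin αV. No group received an inhibitor without BAPN, so the comparisons of either inhibitor group with PBS hold the effect of BAPN as well. Doses, sex and whether a library is 1 mouse or a pool are not stated by the labels. Separate animals are not stated either, and the p-values therefore describe the spread between these samples, which may be technical.

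Type I interferons act through a receptor of the subunits Ifnar1 and Ifnar2 and the kinases Jak1 and Tyk2. A complex that includes STAT2 and IRF9 then binds the interferon-stimulated response element (ISRE) in the promoters of antiviral genes. Interferon gamma has its own receptor and acts mainly on a different element, the gamma-activated site (GAS), with guanylate-binding proteins and antigen-processing genes among its targets. In the vessel wall, macrophages, endothelial cells and smooth muscle cells can all respond. In bulk samples, fewer cells of a type and less RNA per cell cannot be told apart.

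Sequence matches to these elements were found in part of the members' promoters, and whether they are bound in these samples was not tested. RefSeq promoter windows on GRCm38.p6, from 250 bases before to 50 bases after a gene's start, were matched for 34 of the 44 kept members, 41 windows in all. An ISRE core, searched as GAAANNGAA on either strand, was found in 20 of the 41 windows (48.8%), against 8.56% of all 32851 windows in the table and 7.02% of the windows of the genes tested. With 1 more A required at its end, the core was in 41.5% of the members' windows and 3.44% of all windows. The GAS, searched as TTCNNNGAA, was in 10 of the 41 windows (24.4%) and in 8.30% of all windows. The sequences below show the elements in members that hold a match and whose levels are described later, some of which did not pass the test. They are printed 5′ to 3′ on the strand of the gene, with the matches in capitals. Isg15 (chr4:156200769-156201068, minus strand) is shown over its whole window and has 3 matches to the ISRE core that overlap each other, at 78, 72 and 66 bases before the start. The others are shortened to the stretch that holds the matches: Ifit1 (chr19:34640770-34640823, plus), Ifit3 (chr19:34583364-34583445, plus), Ifit3b (chr19:34607760-34607841, plus), Oas1a (chr5:120907521-120907555, minus), Ifi207 (chr1:173741832-173741860, minus) and Bst2 (chr8:71537578-71537612, minus), whose capitals begin with a GAS that overlaps the first of 2 ISRE cores, 130 and 124 bases before the start.
Isg15: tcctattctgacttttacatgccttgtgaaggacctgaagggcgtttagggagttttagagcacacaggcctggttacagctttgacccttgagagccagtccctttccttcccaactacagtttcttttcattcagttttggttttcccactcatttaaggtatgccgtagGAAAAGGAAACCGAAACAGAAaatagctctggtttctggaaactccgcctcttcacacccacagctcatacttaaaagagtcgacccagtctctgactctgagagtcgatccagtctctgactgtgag
Ifit1: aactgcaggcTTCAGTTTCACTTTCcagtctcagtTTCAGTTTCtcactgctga
Ifit3: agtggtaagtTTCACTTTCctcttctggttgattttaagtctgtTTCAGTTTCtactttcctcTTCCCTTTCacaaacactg
Ifit3b: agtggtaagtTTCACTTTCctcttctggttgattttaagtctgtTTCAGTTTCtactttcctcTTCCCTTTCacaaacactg
Oas1a: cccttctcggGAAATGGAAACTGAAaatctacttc
Ifi207: cctagccaggGAAATCGAAaattaagaac
Bst2: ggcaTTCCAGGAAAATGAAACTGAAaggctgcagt
In the 54-base stretch of Ifit1 and the 82-base stretch of Ifit3 the core stands on the opposite strand, so it reads TTCNNTTTC. The stretches of Ifit3 and Ifit3b were identical at 82 of 82 bases, and the transcripts of these close paralogs may share reads as well. The windows of Irf7, Irf9, Herc6, Xaf1, Lgals3bp, Oasl2 and Ifi47 held no match to either motif. Psmb9 and Tap1, which are transcribed away from each other, have starts 226 bases apart, and their windows share 275 bases. That shared promoter is printed from the window of Tap1 (chr17:34187306-34187605, plus) because the pair is high together in 1 PBS library, as described below. It holds neither motif.
Tap1: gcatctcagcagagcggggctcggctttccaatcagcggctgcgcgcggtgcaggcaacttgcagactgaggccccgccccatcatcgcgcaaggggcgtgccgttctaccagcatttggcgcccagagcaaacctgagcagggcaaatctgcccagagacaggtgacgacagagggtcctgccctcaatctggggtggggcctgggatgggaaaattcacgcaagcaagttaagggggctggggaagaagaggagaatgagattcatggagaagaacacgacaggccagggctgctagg
Among the members past the test's threshold in at least 1 comparison, 7 of 15 windows held an ISRE core, and among the others 13 of 26.

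The libraries held 49027885 to 72584877 estimated counts. All 7 smooth muscle markers were detected in every library, with a summed level of 8903 to 10589 FPKM in PBS, 6922 to 10548 in BAPN, 6050 to 8001 in BAPN+Cilengitide and 1163 to 6973 in BAPN+SB273005, where replicate 2 was the lowest. The 14 macrophage and monocyte markers summed to 171 to 315 FPKM in PBS, 346 to 815 in BAPN, 536 to 1048 in BAPN+Cilengitide and 550 to 1139 in BAPN+SB273005, with none at 0 counts in any library. The kidney tubule gene Umod lay at 7.73 to 9.45 FPKM in PBS and at 8.94 to 11.6 FPKM in SB273005 replicates 1 to 3, against 19.8 to 25.8 FPKM in the other 8 libraries. The 6 kidney tubule markers together, Umod included, did not part the libraries in this way. They summed to 246 to 298 FPKM in PBS, 198 to 268 in BAPN, 249 to 264 in BAPN+Cilengitide and 243 to 353 in BAPN+SB273005. An earlier analysis of these data parted the libraries into 2 sets on genes such as Umod. PBS falls wholly in one set and BAPN and BAPN+Cilengitide wholly in the other, so for those comparisons with PBS set and treatment cannot be told apart. SB273005 replicates 1 to 3 fall in the set of PBS and replicate 4 in the other, so the comparisons of SB273005 with BAPN and with BAPN+Cilengitide also cross the sets, except through replicate 4. In what follows, values within a group are in the order of the replicate numbers, and the test is edgeR's quasi-likelihood test on the estimated counts, with Benjamini-Hochberg adjustment over all 13294 genes and a threshold of 0.05.

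The average level of the 44 members was highest in the BAPN+SB273005 group, and it was highest of all in 1 library of that group. The mean of log2(FPKM + 1) over the members was 2.13, 1.79 and 1.90 in PBS and 2.31, 2.01, 2.04 and 2.15 in BAPN. It was 2.22, 2.04 and 1.89 in BAPN+Cilengitide and 2.99, 2.46, 2.31 and 1.99 in BAPN+SB273005. The group means were 1.94 ± 0.17 (SD, n = 3), 2.13 ± 0.14 (n = 4), 2.05 ± 0.16 (n = 3) and 2.44 ± 0.42 (n = 4), and all 4 groups overlapped. SB273005 replicate 1 ranked first and replicate 2 second of 14, while replicate 4 ranked 11, below all 4 BAPN libraries.

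**Figure D1:**
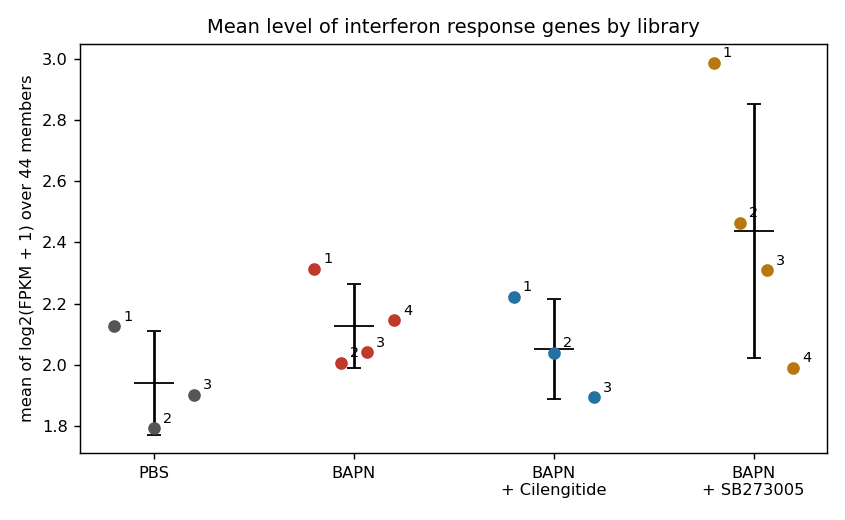
Mean of log2(FPKM + 1) over the 44 kept members in each library, by group, with the replicate number beside each point and the group mean ± SD as a bar. SB273005 replicate 1 lies at 2.99, above every other library, and SB273005 replicate 4 at 1.99 lies within the range of the other groups.

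SB273005 replicate 1 was the highest of the 14 libraries for 31 of the 44 members (70.5%), and for 9.24% of all genes tested. Its level was 1.90 times the median of the other 3 SB273005 libraries for the median member, against 0.995 times for the median gene tested. By role, this ratio had a median of 2.80 in the ISG15 system, 2.66 in the IFIT family, 2.44 among the RNA and DNA sensors, 2.40 in the OAS family, 2.00 among the interferon-gamma type GTPases and 1.12 among the signalling genes. Its summed macrophage markers (1001 FPKM) lay below those of SB273005 replicate 2 (1139) and BAPN+Cilengitide replicate 1 (1048), which had mean member levels of 2.46 and 2.22. Its 4 B cell markers, of which 2 passed the filter, summed to 6.14 FPKM. Its 8 T cell markers, of which 2 passed, summed to 6.80 FPKM. For both, this library was the highest of the 4 with SB273005. Its NK cell markers, of which only Nkg7 passed the filter, summed to 2.08 FPKM, against 0.161, 0.447 and 0.670 FPKM. The 5 plasmacytoid dendritic cell markers summed to 26.3 FPKM, the lowest of the 4, against 27.2, 30.0 and 33.1 FPKM. Of these markers Siglech and Ccr9 missed the filter, and Ccr9 had 0 counts in SB273005 replicates 2 and 3. That sum therefore rests mostly on Cox6a2, Klk1 and Ly6d and says little about these cells. The part of any cell type in this library's levels was not tested. Results are therefore given with and without it where it decides a value.

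**Figure D2:**
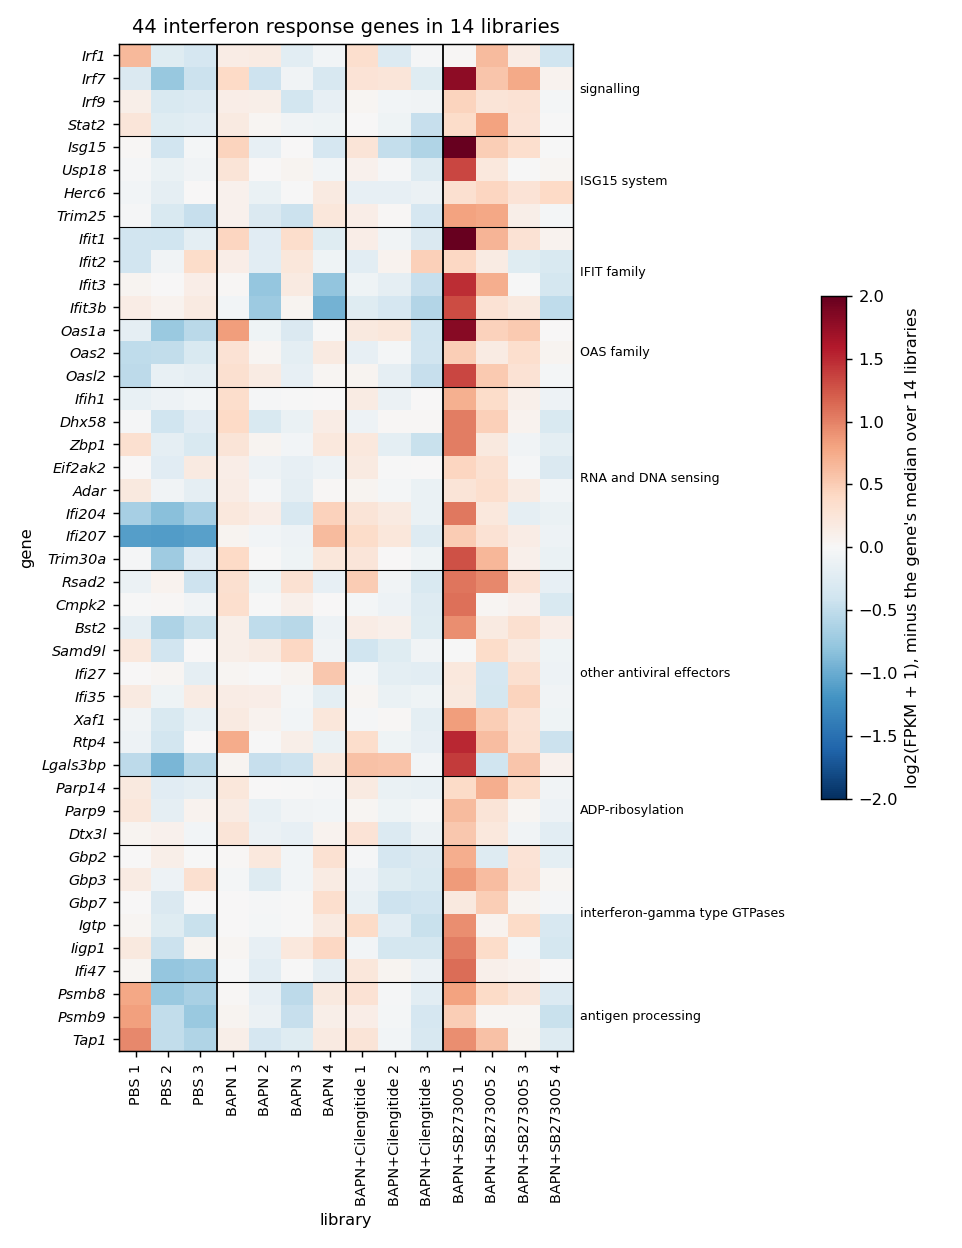
Levels of the 44 kept members (rows, by role) in 14 libraries (columns, by group), as log2(FPKM + 1) minus the gene's median over all libraries. The column of SB273005 replicate 1 is the darkest red for most roles, and the 3 antigen-processing genes are red in PBS replicate 1.

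In SB273005 with BAPN vs. PBS, 15 of the 44 members (34.1%) passed the test, all of them higher, against 13.2% of all genes tested. The median log2 difference was 0.72 over the members and 0.02 over all genes, and all 44 members had a positive difference. At an unadjusted p under 0.05, 27 members (61.4%) passed, against 29.1% of all genes. The 15 members were the regulators Irf7 and Irf9, Herc6 and Trim25 of the ISG15 system, Ifit1, all 3 tested OAS genes, the sensors Ifi204, Ifi207 and Trim30a, the effectors Bst2, Xaf1 and Lgals3bp, and the GTPase Ifi47. Leaving out SB273005 replicate 1 lowered the difference of 38 of the 44 members, left 40 above PBS and 7 past the threshold (9.69% of all genes passed then), and brought the median to 0.51. The 7 were Bst2, Herc6, Ifi204, Ifi207, Irf7, Lgals3bp and Oas2. PBS libraries mattered as well, with 10 members past the threshold without PBS replicate 1, 3 without replicate 2 and 5 without replicate 3. The share of all genes past it fell as well, from 13.2% to 8.33%, 3.75% and 7.01%. Herc6, Ifi207 and Oas2 passed with each of the 14 libraries left out in turn. None of the 3 reached 1 FPKM in any PBS library, so they entered the fit only through groups in which they were higher. SB273005 replicates 1 to 3 and PBS, which lie in the same library set, gave 4 members in a fit of these 6 libraries alone, Ifi207, Oas2, Irf7 and Xaf1, against 4.00% of all genes.

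**Figure D3:**
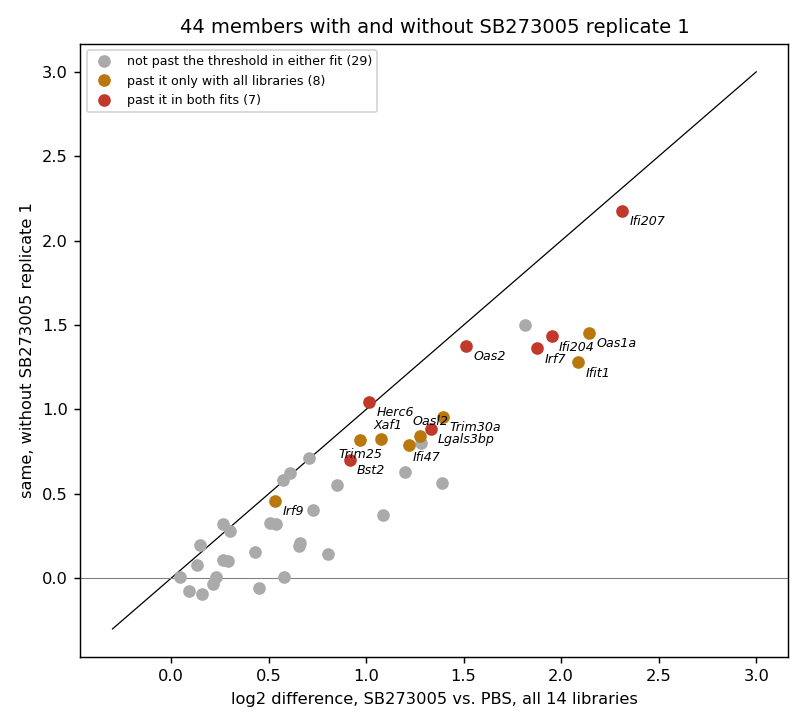
Log2 difference of each of the 44 kept members in BAPN+SB273005 vs. PBS, fitted with all 14 libraries (horizontal) and without SB273005 replicate 1 (vertical). Red points passed the threshold in both fits (7), orange points only with all libraries (8) and grey points in neither (29), and 38 of the 44 points lie below the line of equal values.

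In BAPN vs. PBS, 1 of the 44 members passed, Ifi207, which was higher, against 0.233% of all genes, and 3 members (6.82%) passed at an unadjusted p under 0.05, a smaller share than the 12.0% of all genes. The median difference of the members was 0.25, and 33 of 44 were positive. No member passed without PBS replicate 1, 2 or 3 in turn. In BAPN+Cilengitide vs. PBS, Ifi204 and Ifi207 passed, 2 of 44 members against 5.58% of all genes, with a median of 0.12 and 25 members positive. There 5 members (11.4%) had an unadjusted p under 0.05, against 20.2% of all genes. The call for Ifi204 was lost with 9 of the 14 libraries left out in turn (edgeR adjusted p 0.0128 to 0.155 over the 14), and that for Ifi207 held in all 14. These comparisons share the PBS libraries with that of SB273005.

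No member passed edgeR's test for either inhibitor relative to BAPN alone, and the direction of most members with SB273005 turned when library set was a term. In SB273005 with BAPN vs. BAPN, 0 of 44 members passed, against 0.0301% of all genes. There, 18 members (40.9%, against 16.1% of all genes) had an unadjusted p under 0.05, all higher with SB273005, and the median difference was 0.51, with 43 of 44 positive. DESeq2 called 4 members (Bst2, Gbp3, Herc6 and Irf7) and 2.97% of all genes, and limma called 0 members. With library set as a term, the median was -0.19, with 10 of 44 positive and 1 at an unadjusted p under 0.05; that value rests on SB273005 replicate 4, the only library of its group in the set of BAPN. In BAPN+Cilengitide vs. BAPN, 0 of 44 members passed by edgeR, DESeq2 or limma, against 0% of all genes by edgeR, with 3 (6.82%, against 6.07% of all genes) at an unadjusted p under 0.05, all lower with Cilengitide, and a median of -0.08. Between the inhibitors, in SB273005 vs. Cilengitide, 0 of 44 passed by edgeR, against 0% of all genes. Of these, 17 members (38.6%, against 9.21% of all genes) had an unadjusted p under 0.05, all higher with SB273005. DESeq2 called Gbp3 and Herc6 and 0.293% of all genes, and limma called 0 members. The median difference was 0.63, with 43 of 44 positive, and with library set as a term, which again rests on SB273005 replicate 4, it was -0.06, with 16 positive and 1 at an unadjusted p under 0.05. Doses are not known, so the levels under the 2 compounds stand side by side and are not matched.

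Among the signalling genes, Irf7, the transcription factor that amplifies interferon production, rose most. Irf7 was at 2.31, 1.38 and 2.00 FPKM in PBS, 4.28, 2.00, 2.81 and 2.21 in BAPN, 3.87, 3.77 and 2.39 in BAPN+Cilengitide and 12.8, 4.91, 5.79 and 3.24 in BAPN+SB273005. All SB273005 libraries lay above all PBS libraries, and replicate 1 stood far above the other 3. The log2 difference from PBS was 1.88 ± 0.42 (SE; edgeR adjusted p = 0.0140), and 1.36 without that replicate. Relative to BAPN it was 1.29 ± 0.37 (edgeR adjusted p = 0.174), 0.77 without it and 0.26 with library set as a term. Irf9, the DNA-binding partner of STAT2, was at 5.52, 3.84 and 3.95 FPKM in PBS and 7.16, 6.19, 6.36 and 4.83 in BAPN+SB273005. Its groups overlapped, and the difference of 0.53 ± 0.16 (edgeR adjusted p = 0.0459) kept its call with only 4 of the 14 libraries left out in turn. Stat2 was at 5.68, 3.80 and 3.87 FPKM in PBS and 6.31, 8.92, 5.87 and 4.64 in BAPN+SB273005, and its difference of 0.61 ± 0.22 did not pass (edgeR adjusted p = 0.0818). Irf1, which responds mainly to interferon gamma, was highest in PBS replicate 1 (9.05 FPKM) and differed from PBS by 0.15 ± 0.30 (edgeR adjusted p = 0.788).

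ISG15 is a ubiquitin-like protein that is attached to other proteins, by HERC6 as the main ligase in mice, and removed by USP18. Isg15 was at 4.77, 3.34 and 4.52 FPKM in PBS, 6.69, 4.04, 4.69 and 3.49 in BAPN, 5.73, 3.07 and 2.73 in BAPN+Cilengitide and 24.6, 6.98, 6.16 and 4.62 in BAPN+SB273005. The last group held 1 library at 24.6 FPKM and 3 at 4.62 to 6.98 FPKM, of which 2 lay within the BAPN range. The difference from PBS, 1.39 ± 0.52, did not pass (edgeR adjusted p = 0.0933). Against BAPN it was 1.21 ± 0.47, 0.39 without SB273005 replicate 1 and 0.02 with library set as a term. Herc6 showed the opposite distribution, a low level and a difference that every SB273005 library shared. It was at 0.609, 0.472 and 0.671 FPKM in PBS, 0.767, 0.524, 0.664 and 0.884 in BAPN, 0.486, 0.485 and 0.532 in BAPN+Cilengitide and 1.08, 1.24, 1.01 and 1.20 in BAPN+SB273005. Every SB273005 library lay above every library of the other 3 groups, and replicate 1 was the second lowest of its group. The difference was 1.02 ± 0.19 from PBS (edgeR adjusted p = 0.00624), 0.73 ± 0.17 from BAPN (edgeR adjusted p = 0.121) and 1.19 ± 0.19 from BAPN+Cilengitide (edgeR adjusted p = 0.370). With library set as a term, the last 2 were 0.81 and 1.27. All 4 libraries in which Herc6 reached 1 FPKM belong to BAPN+SB273005, so it passed the filter only through the group where it is high. Trim25, a ubiquitin ligase of the RNA-sensing pathway, was at 3.55, 2.74 and 2.36 FPKM in PBS and 7.06, 6.89, 4.05 and 3.50 in BAPN+SB273005, groups that overlapped at their edges, with a difference of 0.97 ± 0.29 (edgeR adjusted p = 0.0424). Its call held with 6 of the 14 libraries left out in turn. Usp18 was at 0.855 to 0.991 FPKM in PBS and at 4.13, 1.35, 1.01 and 1.07 in BAPN+SB273005, where replicate 1 stood alone (edgeR adjusted p = 0.116).

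IFIT proteins bind viral RNA and block its translation. Ifit1 was at 0.800, 0.783 and 1.05 FPKM in PBS, 2.15, 0.999, 2.00 and 0.981 in BAPN, 1.56, 1.22 and 0.919 in BAPN+Cilengitide and 8.34, 2.76, 1.87 and 1.47 in BAPN+SB273005. SB273005 libraries were all above PBS, replicate 1 by far, and 2 of the 4 lay within the BAPN range. The difference from PBS was 2.09 ± 0.56 (edgeR adjusted p = 0.0290), and 1.28 without replicate 1, when it no longer passed. Ifit3 was at 15.2, 14.7 and 16.2 FPKM in PBS, 14.9, 8.14, 16.8 and 8.02 in BAPN, 13.7, 12.8 and 10.4 in BAPN+Cilengitide and 42.7, 24.8, 14.6 and 11.3 in BAPN+SB273005. Its SB273005 range enclosed the PBS range, and the difference of 0.66 ± 0.40 did not pass (edgeR adjusted p = 0.294). Ifit3b, its paralog, was at 5.14, 4.85 and 5.34 FPKM in PBS, 4.35, 2.39, 4.81 and 1.90 in BAPN, 3.71, 3.40 and 2.72 in BAPN+Cilengitide and 12.8, 5.84, 5.35 and 2.90 in BAPN+SB273005. For Ifit3b, PBS libraries lay above all BAPN and all BAPN+Cilengitide libraries, without passing the test (edgeR adjusted p = 0.660 and 0.513). Ifit2 differed from PBS by 0.09 ± 0.27 with SB273005 (edgeR adjusted p = 0.856) and was highest in BAPN+Cilengitide replicate 3 (7.49 FPKM).

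OAS enzymes make oligoadenylates that activate RNase L, which cleaves viral and cellular RNA. All 3 tested members rose with SB273005 relative to PBS. Oas2 was at 0.463, 0.486 and 0.689 FPKM in PBS, 1.54, 1.14, 0.821 and 1.36 in BAPN, 0.862, 1.04 and 0.598 in BAPN+Cilengitide and 1.92, 1.33, 1.62 and 1.16 in BAPN+SB273005. BAPN and SB273005 libraries all lay above PBS and overlapped each other. The difference from PBS was 1.51 ± 0.28 with SB273005 (edgeR adjusted p = 0.00641), 1.38 without replicate 1, and 1.15 ± 0.28 in BAPN, which did not pass (edgeR adjusted p = 0.0843). Oas1a was at 1.33, 0.568 and 0.810 FPKM in PBS, 3.68, 1.47, 1.14 and 1.61 in BAPN, 2.01, 2.08 and 1.00 in BAPN+Cilengitide and 8.22, 2.60, 2.79 and 1.63 in BAPN+SB273005. SB273005 libraries lay above PBS, with replicate 1 far above the rest, and overlapped BAPN. Its difference of 2.14 ± 0.58 (edgeR adjusted p = 0.0306) fell to 1.45 and no longer passed without that replicate. Oasl2, an OAS-like gene, was at 1.32, 1.99 and 1.94 FPKM in PBS and 7.37, 3.76, 3.07 and 2.21 in BAPN+SB273005, a difference of 1.27 ± 0.36 (edgeR adjusted p = 0.0348) that also did not pass without replicate 1.

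**Figure D4:**
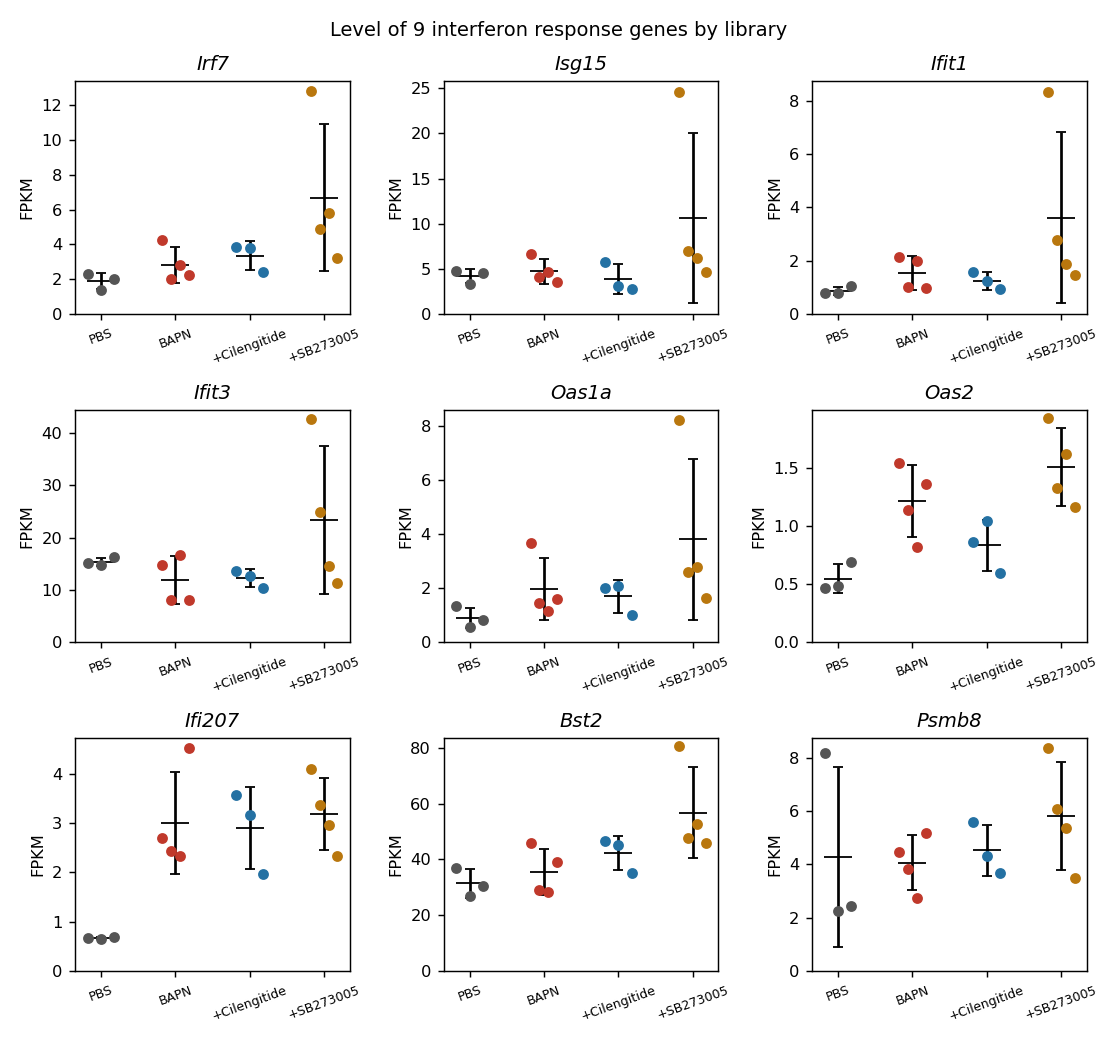
FPKM of 9 members by library (points) and group, with the group mean ± SD; "+Cilengitide" and "+SB273005" were given with BAPN. Ifi207 lies at 0.643 to 0.681 FPKM in PBS and at 1.97 FPKM or more in every other library, while Irf7, Isg15, Ifit1, Ifit3 and Oas1a have 1 SB273005 library far above the rest.

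Among the nucleic acid sensors, Ifi207 and Ifi204 lay higher in every BAPN-fed library than in PBS. The share of all genes with such a separation was not counted. Ifi207, a member of the PYHIN family to which DNA sensors belong, was at 0.670, 0.643 and 0.681 FPKM in PBS, 2.71, 2.43, 2.33 and 4.54 in BAPN, 3.58, 3.16 and 1.97 in BAPN+Cilengitide and 4.09, 3.37, 2.96 and 2.33 in BAPN+SB273005. Every BAPN-fed library lay above every PBS library, and the BAPN-fed groups overlapped each other. The log2 differences from PBS were 2.17 ± 0.29, 2.16 ± 0.30 and 2.31 ± 0.29 (edgeR adjusted p = 0.0152, 0.00463 and 0.00166). Ifi204, its neighbour on chromosome 1 and a mouse DNA sensor, was at 0.720, 0.522 and 0.703 FPKM in PBS, 2.14, 1.97, 1.17 and 2.71 in BAPN, 2.25, 2.08 and 1.47 in BAPN+Cilengitide and 4.64, 2.13, 1.39 and 1.47 in BAPN+SB273005. It too lay higher in each BAPN-fed library than in PBS. Its differences were 1.62 ± 0.41, which did not pass (edgeR adjusted p = 0.101), 1.62 ± 0.43 and 1.95 ± 0.42, which did (edgeR adjusted p = 0.0459 and 0.0114). Neither gene reached 1 FPKM in a PBS library, so both entered the fit only through groups in which they were higher. For BAPN and BAPN+Cilengitide, set and treatment cannot be told apart in these differences. Both genes belong to a family of close paralogs, so reads may be split between them. Macrophage marker sums were also above the PBS range in every BAPN-fed library, and their part in these differences was not tested.

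Trim30a, a mouse TRIM protein, was at 1.73, 0.690 and 1.37 FPKM in PBS and 5.67, 3.38, 1.97 and 1.53 in BAPN+SB273005, groups that overlapped, with a difference of 1.39 ± 0.41 (edgeR adjusted p = 0.0429) that held with 3 of the 14 libraries left out in turn. Of the other 5 genes in this role, none passed in any comparison. Ifih1 and Dhx58, cytosolic RNA sensors, differed by 0.85 ± 0.31 and 1.28 ± 0.49 with SB273005 relative to PBS (edgeR adjusted p = 0.0878 and 0.0997). Zbp1 and Eif2ak2 differed by 0.80 ± 0.54 and 0.27 ± 0.24 (edgeR adjusted p = 0.350 and 0.492). Adar, which edits double-stranded RNA, was at 5.32, 4.26 and 3.89 FPKM in PBS, 5.18, 4.43, 3.92 and 4.67 in BAPN, 4.78, 4.41 and 4.06 in BAPN+Cilengitide and 5.62, 5.97, 5.21 and 4.37 in BAPN+SB273005. All groups overlapped, and the difference with SB273005 from PBS was 0.30 ± 0.13 (edgeR adjusted p = 0.142).

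Bst2, also called tetherin, holds budding virus at the cell surface. Bst2 was at 37.0, 26.9 and 30.4 FPKM in PBS, 45.8, 29.0, 28.3 and 39.0 in BAPN, 46.8, 45.0 and 35.2 in BAPN+Cilengitide and 80.9, 47.7, 52.7 and 45.8 in BAPN+SB273005. Every SB273005 library lay above every PBS library. The difference from PBS was 0.92 ± 0.21 (edgeR adjusted p = 0.0165), and 0.70 without replicate 1. Xaf1, a pro-apoptotic factor, was at 1.12, 0.799 and 1.01 FPKM in PBS and 2.98, 2.13, 1.73 and 1.08 in BAPN+SB273005, with overlap at replicate 4 and a difference of 1.08 ± 0.28 (edgeR adjusted p = 0.0258). Lgals3bp, a secreted glycoprotein, was at 13.7, 10.2 and 13.6 FPKM in PBS, 21.0, 14.3, 14.9 and 23.4 in BAPN, 31.0, 30.5 and 19.4 in BAPN+Cilengitide and 54.9, 15.1, 30.2 and 21.6 in BAPN+SB273005. Each BAPN-fed group lay above PBS. The difference passed with SB273005, at 1.33 ± 0.35 (edgeR adjusted p = 0.0286), and not with Cilengitide, at 1.15 ± 0.37 (edgeR adjusted p = 0.0877); the difference between the inhibitors was 0.18 ± 0.34 (edgeR adjusted p = 0.900), and -0.30 with library set as a term. The other 6 kept effectors did not pass. Rsad2 (viperin) and Rtp4 had the widest differences among them, 1.82 ± 0.69 and 1.20 ± 0.49 relative to PBS (edgeR adjusted p = 0.101 and 0.124), and Ifi27 and Ifi35 the smallest, 0.14 ± 0.16 and 0.05 ± 0.15 (edgeR adjusted p = 0.615 and 0.874).

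PARP14, PARP9 and DTX3L form the ADP-ribosylation role, and PARP9 and DTX3L act as a complex. None of the 3 genes passed. Parp14 was at 2.27, 1.43 and 1.52 FPKM in PBS, 2.35, 1.87, 1.84 and 1.82 in BAPN, 2.22, 1.59 and 1.56 in BAPN+Cilengitide and 2.70, 3.73, 2.64 and 1.71 in BAPN+SB273005. All groups overlapped, and the difference from PBS with SB273005 was 0.71 ± 0.24 (edgeR adjusted p = 0.0656). Parp9 and Dtx3l overlap head to head on chromosome 16, and without a stated strand setting their reads may not be separable. Parp9 was at 4.61, 3.22 and 4.05 FPKM in PBS and 6.40, 4.71, 3.91 and 3.48 in BAPN+SB273005, and Dtx3l at 2.11, 2.18 and 1.88 and 3.35, 2.48, 1.85 and 1.58. Both pairs of groups overlapped (edgeR adjusted p = 0.319 and 0.600).

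Guanylate-binding proteins and immunity-related GTPases attack intracellular pathogens and respond to interferon gamma. Ifi47 was at 3.11, 1.33 and 1.41 FPKM in PBS, 2.96, 2.44, 2.97 and 2.54 in BAPN, 3.68, 3.17 and 2.69 in BAPN+Cilengitide and 7.71, 3.28, 3.20 and 3.02 in BAPN+SB273005. PBS replicate 1 overlapped the SB273005 libraries and the other PBS libraries did not. The difference of 1.22 ± 0.35 passed (edgeR adjusted p = 0.0388) and fell to 0.79 without SB273005 replicate 1, when it no longer passed. Gbp3 was at 3.19, 2.49 and 3.68 FPKM in PBS, 2.67, 2.13, 2.62 and 3.22 in BAPN, 2.49, 2.17 and 2.05 in BAPN+Cilengitide and 5.79, 4.76, 3.57 and 2.84 in BAPN+SB273005. Every SB273005 library lay above every BAPN+Cilengitide library, and the difference between the inhibitors was 0.94 ± 0.23 (edgeR adjusted p = 0.50), and 0.36 with library set as a term. Gbp7 was at 1.21, 0.789 and 1.20 FPKM in PBS, 1.20, 1.15, 1.18 and 1.75 in BAPN, 0.973, 0.638 and 0.688 in BAPN+Cilengitide and 1.51, 2.09, 1.28 and 1.16 in BAPN+SB273005. It was lowest in BAPN+Cilengitide, whose libraries lay below all BAPN and all SB273005 libraries, with a difference of -0.75 ± 0.26 from BAPN that did not pass (edgeR adjusted p = 0.795). Gbp2, Igtp and Iigp1 differed by 0.22 ± 0.21, 0.73 ± 0.32 and 0.66 ± 0.40 with SB273005 relative to PBS (edgeR adjusted p = 0.530, 0.146 and 0.304).

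PSMB8 and PSMB9 are catalytic subunits of the immunoproteasome and TAP1 carries the peptides it makes to MHC class I. Here PBS replicate 1 was the highest library for Psmb9 and Tap1, and for Psmb8 it was second to SB273005 replicate 1. SB273005 replicate 1 was also 1.54 to 2.08 times the median of the other SB273005 libraries in this role. Psmb8 was at 8.17, 2.23 and 2.44 FPKM in PBS, 4.45, 3.82, 2.74 and 5.18 in BAPN, 5.57, 4.32 and 3.67 in BAPN+Cilengitide and 8.37, 6.06, 5.36 and 3.47 in BAPN+SB273005. Psmb9 was at 4.18, 1.09 and 0.750 FPKM in PBS, 2.05, 1.71, 1.14 and 2.19 in BAPN, 2.23, 1.86 and 1.33 in BAPN+Cilengitide and 3.12, 2.03, 2.03 and 1.16 in BAPN+SB273005. Tap1, which shares the printed promoter with Psmb9, was at 7.14, 1.98 and 1.77 FPKM in PBS, 3.58, 2.34, 2.57 and 3.76 in BAPN, 4.00, 3.03 and 2.36 in BAPN+Cilengitide and 7.03, 5.33, 3.37 and 2.51 in BAPN+SB273005. PBS replicate 1 was 3.50, 4.54 and 3.81 times the mean of the other PBS libraries for Psmb8, Psmb9 and Tap1, and the other 2 PBS libraries lay below all SB273005 libraries. In that library the 4 B cell markers summed to 88.3 FPKM, against 1.25 and 0.992 in the other PBS libraries, and the 8 T cell markers to 20.1 FPKM, against 9.35 and 3.45. Their part in its antigen-processing levels was not tested. With SB273005 the differences from PBS were 0.54 ± 0.40, 0.16 ± 0.48 and 0.43 ± 0.45 (edgeR adjusted p = 0.407, 0.863 and 0.567). Without PBS replicate 1, Psmb8 passed, with a difference of 1.33. Psmb9 and Tap1 overlap in the annotation, so their reads may also be shared.

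**Figure D5:**
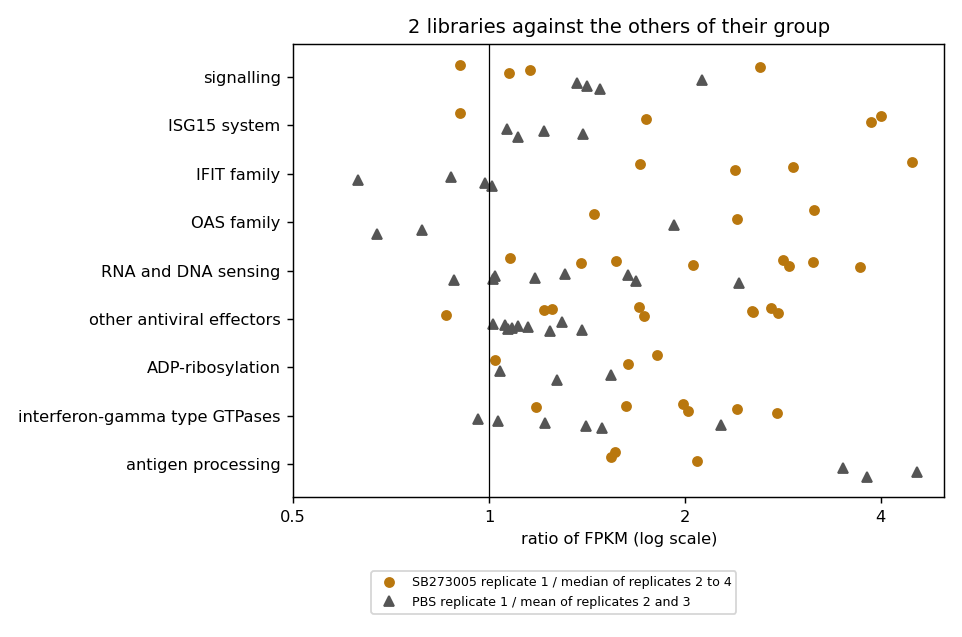
Ratio of FPKM in 1 library to the others of its group for each kept member, by role, on a log axis: SB273005 replicate 1 over the median of replicates 2 to 4 (circles) and PBS replicate 1 over the mean of replicates 2 and 3 (triangles). The circles reach 4.46 in the IFIT family, while the 3 antigen-processing genes have the highest triangles, 3.50 to 4.54.

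The 5 listed genes that missed the filter were Mx1, Mx2, Ifi44, Oas3 and Oasl1. Mx1, a dynamin-like antiviral GTPase of which C57BL/6 mice carry a defective allele, was at 0.323, 0.199 and 0.200 FPKM in PBS, 0.886, 0.296, 1.01 and 0.369 in BAPN, 0.581, 0.808 and 0.303 in BAPN+Cilengitide and 3.27, 0.955, 0.507 and 0.212 in BAPN+SB273005. SB273005 replicate 1 again held the highest value. Oasl1 reached 2.23 FPKM and Oas3 0.796 FPKM in that library, and each was lower in the other 13. Ifi44 also peaked there, at 0.656 FPKM, while Mx2 was highest in replicate 2, at 1.32 FPKM. The third-highest level, on which the filter rests, was 0.955 FPKM for Mx1 and 0.713 FPKM for Mx2 just outside, and 1.08 FPKM for Herc6 and 1.15 FPKM for Zbp1 just inside.

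Other genes of the pathway were taken from a list of receptors, signalling genes, upstream sensors and further induced genes, of which 71 were tested. In SB273005 with BAPN vs. PBS, 12 of the 71 (16.9%) passed, all higher, a share near the 13.2% of all genes, with a median difference of 0.51 and 64 positive. At an unadjusted p under 0.05, 35 (49.3%) passed, against 29.1% of all genes. Among the receptors, Ifngr1, a subunit of the interferon gamma receptor, was at 21.8, 20.9 and 23.5 FPKM in PBS, 32.7, 23.8, 23.2 and 26.6 in BAPN, 35.7, 31.6 and 30.2 in BAPN+Cilengitide and 38.7, 27.9, 35.2 and 31.5 in BAPN+SB273005. All SB273005 and Cilengitide libraries lay above PBS, with differences of 0.65 ± 0.13 and 0.60 ± 0.13 (edgeR adjusted p = 0.00818 and 0.0240). Ifnar1 rose by 0.52 ± 0.13 with SB273005 (edgeR adjusted p = 0.0200). Tlr7, an endosomal sensor of single-stranded RNA that macrophages and dendritic cells express, was at 0.674, 0.267 and 0.563 FPKM in PBS and 2.39, 2.98, 1.76 and 1.53 in BAPN+SB273005. Its difference from PBS was 2.19 ± 0.44 with SB273005 (edgeR adjusted p = 0.00902) and 2.05 ± 0.46 with Cilengitide (edgeR adjusted p = 0.0232). Tlr7 did not reach 1 FPKM in any PBS library, so it entered the fit only through libraries in which it was higher.

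The other 9 were all among the further induced genes. Slfn5, of the schlafen family, was at 2.26, 3.19 and 3.10 FPKM in PBS, 6.27, 5.54, 3.63 and 5.33 in BAPN, 7.70, 5.07 and 5.05 in BAPN+Cilengitide and 10.9, 11.1, 7.07 and 5.20 in BAPN+SB273005, higher in every BAPN-fed library than in PBS. It differed from PBS by 1.64 ± 0.29 with SB273005 (edgeR adjusted p = 0.00549). Isg20, an exonuclease, passed with both inhibitors, at 1.20 ± 0.26 and 1.01 ± 0.27 (edgeR adjusted p = 0.0117 and 0.0474). The remaining 7, Ifi203, Ifitm1, Lgals9, Phf11d, Rnf213, Slfn2 and Tdrd7, passed with SB273005 and had differences from 0.69 (Tdrd7) to 1.75 (Ifitm1). In BAPN vs. PBS 0 of the 71 passed by edgeR, with 7 at an unadjusted p under 0.05, 2 by DESeq2 and 0 by limma. Relative to BAPN, edgeR called 0 with SB273005 (21 at an unadjusted p under 0.05, 2 by DESeq2, 0 by limma) and 0 with Cilengitide (1 unadjusted, 0 by DESeq2 or limma). Between the inhibitors it called 0 (10 unadjusted, 0 by DESeq2 or limma). The unadjusted share was 9.86% of the 71 against 12.0% of all genes in BAPN vs. PBS. It was 1.41% against 6.07% in Cilengitide vs. BAPN, 29.6% against 16.1% in SB273005 vs. BAPN, and 14.1% against 9.21% between the inhibitors. By adjusted p, edgeR called 0.233% of all genes in BAPN vs. PBS and 0.0301% in SB273005 vs. BAPN.

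The interferon genes themselves were at or near 0. Of 6 ligand genes matched by name, none passed the filter. Ifnb1 had 0 counts over the PBS, BAPN and BAPN+SB273005 libraries and 4 over BAPN+Cilengitide. Ifna1 had 4 counts over BAPN and 0 over each other group. Ifng had 8 counts over PBS, 7 over BAPN, 3 over BAPN+Cilengitide and 0 over BAPN+SB273005. A count of 0 allows up to 3 counts over a group, and none of the 6 was tested.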

How the data were processed

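Per the labels' protocols, total RNA was isolated with Trizol and copied to cDNA with SuperScript II. The submitters' processing notes name HISAT2 2.2.1, StringTie 2.1.6 and the build mm10. The annotation release and the strand setting are not stated there. The deposited gene and transcript tables (32289 genes, 94714 transcripts) hold the authors' FPKM and whole-number estimated counts for each library. Because StringTie estimates these counts, edgeR's counting error only approximates theirs. The 14 libraries entered 1 fit of the 13294 genes that reached 1 FPKM in 3 or more of them (edgeR 4.0.16 in R 4.3.3, TMM, 6 comparisons). The SE of a log2 difference is its size over the square root of the F statistic. Each of 18 replicate pairs within a group differed beyond sampling noise (lowest chi-square 59.8 for each degree of freedom), so each library was 1 sample.

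The members, their roles, the other pathway genes and the markers were chosen with earlier results of these data known. Library values are given for the 2 members of each role with the smallest p and for 12 genes that the rule names, some of them the same, and every member past the threshold is named. Values of other genes in the text were chosen after they were seen. Alternatives were DESeq2 1.42.0, its size factors in edgeR, no or a stricter filter, limma 3.58.1 on log2(FPKM + 1) and log2(FPKM + 0.1), fits of the groups compared, a replicate block, a term for the library set and each library left out. Leaving out PBS replicate 1 and SB273005 replicate 1 together was added after seeing the data. The labels do not say what a replicate number marks. Same-numbered libraries deviated together in all 3 pairs (correlation over 0.1) in BAPN+Cilengitide vs. PBS (0.10 to 0.33) and in BAPN+SB273005 vs. BAPN+Cilengitide (0.15 to 0.29). The numbers were treated as a possible pairing there only. In BAPN+SB273005 vs. PBS, which such a pairing would link as well, the libraries numbered 2 had a correlation of -0.02, so a pairing is not established. Promoter sequences are from RefSeq on GRCm38.p6, and member positions from the deposited gene table on mm10.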

Additional observations from a re-analysis of the deposited data

Results flagged for a closer look

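In groups of 4 libraries, the highest or lowest library of each named member was compared with the spread of its group (Dixon's 95% critical value for the gap over the range). Of 60 such groups, 5 passed, and chance gives about 1 in 20. With SB273005, replicate 1 stood apart for Isg15, the ubiquitin-like modifier, at 24.6 FPKM against 4.62 to 6.98 FPKM in the other 3 libraries, and for the GTPase Ifi47, at 7.71 FPKM against 3.02 to 3.28 FPKM. In BAPN, replicate 4 stood apart for Ifi207, at 4.54 FPKM against 2.33 to 2.71 FPKM, and for Gbp7, at 1.75 FPKM against 1.15 to 1.20 FPKM. In BAPN, replicate 1 stood apart for Parp14, at 2.35 FPKM against 1.82 to 1.87 FPKM.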

How the results depend on the processing

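Counts of members past the threshold depended on the setting in every comparison with PBS. In BAPN+SB273005 vs. PBS the count of 15 became 6 with no filter on FPKM, 3 with the stricter filter of 5 FPKM, 6 with limma on log2(FPKM + 1), 3 in a fit of only the groups compared, 4 in a fit of SB273005 replicates 1 to 3 and PBS, and 7 without PBS replicate 1 and SB273005 replicate 1 together. It was 11 with limma on log2(FPKM + 0.1), 15 with DESeq2's size factors, 21 with DESeq2 and 22 when library set was a term. Leaving out each library in turn gave 3 to 22. The stricter filter tests fewer members by construction. With library set as a term, SB273005 replicate 4 only informs that term, so the difference from PBS rests on replicates 1 to 3. The log2 differences of the members were then nearly the same as without replicate 4. The count of 22 with that term is therefore no separate adjustment for library set. The cause of the other changes was not tested. The share of all genes past the threshold moved with the setting as well. It was 13.2% with all libraries, 9.69% without SB273005 replicate 1 and 3.75% without PBS replicate 2. For the other settings in this paragraph the counts are given without that share, so they cannot be set against it. A change of setting thus moved the share of all genes too, but not always alike. Without SB273005 replicate 1 the members past the threshold fell from 15 to 7, a steeper fall than that of all genes. In BAPN+Cilengitide vs. PBS the count of 2 became 1 with no filter and with limma on log2(FPKM + 1) or log2(FPKM + 0.1), 0 with the stricter filter and when library set was a term, and 1 to 3 with each library left out. In BAPN vs. PBS the count of 1 became 3 with DESeq2, 0 with the stricter filter, when library set was a term, and without PBS replicate 1 and SB273005 replicate 1 together, and 0 to 2 with each library left out. For BAPN and BAPN+Cilengitide vs. PBS, the set term is estimated only from SB273005 replicate 4 against replicates 1 to 3. Their counts of 0 with that term therefore do not separate set from treatment. In BAPN+SB273005 vs. BAPN, and between the inhibitors, DESeq2 gave 4 and 2 members in place of 0, and leaving out libraries gave 0 to 0. With library set as a term the median log2 differences there went from 0.51 to -0.19 and from 0.63 to -0.06. With the replicate number as a replicate block, the counts in the comparisons with PBS were 1 (BAPN), 2 (BAPN+Cilengitide) and 20 (BAPN+SB273005), and 0 in the other 3. In the 2 comparisons where the numbers may pair the libraries, the block kept the calls of Ifi204 and Ifi207 (BAPN+Cilengitide vs. PBS) and the count of 0 (between the inhibitors, where members at an unadjusted p under 0.05 went from 17 to 27). In the other 4 comparisons the libraries share only a number, since at least 1 pair had a correlation of 0.1 or less, down to -0.16; over all comparisons, 12 of 19 pairs exceeded 0.1. For single members, 302 alternative values of passing differences still passed, 130 did not, and none of these changed sign. Depth limits members near 1 FPKM, such as Herc6, and the ligand genes.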

Other observations

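Adar, which makes a long interferon-inducible protein from 1 promoter and a shorter constitutive one from others, had 2 transcripts past the filter. The longer, Adar-203, with 1178 codons, was at 1.68 to 7.17 FPKM in PBS and 3.16 to 8.06 FPKM in BAPN+SB273005. Adar-202, with 930 codons, was at 0 to 3.44 FPKM in PBS and 0 to 2.62 FPKM in BAPN+SB273005. Levels overlapped between groups, and some libraries list 1 transcript at 0, so the authors' split between them varies more than the summed gene level. The RefSeq window at the start of the longer transcript held 2 ISRE cores and 1 GAS.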
